A study of Mus musculus with 8 samples.

Results

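Cluster 11 was the smallest group of cells in a single-cell RNA study of mouse preadipocytes that were driven to become brown-like adipocytes. Its members here are the 2487 genes with an entry for cluster 11, of 13337 entries over all 12 clusters. Every entry of cluster 11 was taken, with no further selection. The cultures came from the inguinal white adipose tissue of young adult C57BL/6 mice, either wild type (WT) or lacking both HMGN1 and HMGN2 (DKO), which are nucleosome-binding chromatin proteins. Cells were captured as preadipocytes (day 0) and on day 6 of differentiation, with 2 cultures per genotype and day and 8 samples in all. The differentiation medium held 1 μM rosiglitazone, 1 nM T3, 0.5 mM IBMX, 5 μM dexamethasone and 0.5 μg/ml insulin for 4 days, and later insulin and T3 alone. The knockout is carried by every cell of the DKO mice, and T3 and rosiglitazone, which pushes cells towards the adipocyte fate by activating PPARγ, reached both genotypes.

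The table pools the 8 samples. It gives no value per sample, genotype or day, so no value below has a replicate error and no difference was tested. Each entry holds a log2 fold change of the mean level in the cluster over the mean level in all other cells, after 1 is added to both means, and the percentage of cells with at least 1 count, once for the cluster and once for the remaining cells. All fold changes and detection percentages of single genes were taken from the table that the authors deposited. A fold change of low genes is understated by the added 1. A gene with no entry for a cluster missed a minimum of the comparison there, which is not a level of 0. The larger of the 2 detection percentages was at least 10.1% in every entry. A gene below that in the other cells could thus be listed only through cells inside the cluster. Its direction is then no separate result, also where such a gene is counted in a list. The study's methods give only targets for cells per capture and reads per cell, and the numbers reached in each cluster are unknown here. From the detection percentages alone, cluster 11 was computed to hold 1.50% of all cells, cluster 4 9.59% and cluster 8 5.92%.

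White adipocytes store triglyceride in a lipid droplet and release fatty acids from it on demand. Beige adipocytes also arise in white fat, carry many mitochondria, and can burn fatty acids to make heat, with UCP1 as the protein that uncouples respiration from ATP synthesis. Preadipocytes, the fibroblast-like cells from which both form, make collagen matrix and contractile stress fibres, and lose both as they round up and fill with lipid.

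The label was checked against markers. Of 14 adipocyte markers, 5 (Car3, Fabp5, Fabp4, Ppargc1a and Elovl3) are those that mark the cluster by its label, and their direction is no independent check. Of the other 9, 8 had an entry and all 8 were higher in cluster 11, among them Plin1, which coats the lipid droplet (log2 fold change 2.58, detected in 99.8% of the cluster and in 14.4% of other cells), and the transcription factor gene Cebpa (1.92, 98.7% against 26.1%). Cidec, among these 8, was found in only 5.7% of other cells and could be listed only through cells inside the cluster. The direction of Cidec is therefore no independent check either. Cfd was the marker without an entry. The beige part of the label rested on fewer genes, since 3 of 7 beige markers had an entry (Cox7a1 and the label markers Ppargc1a and Elovl3, all higher), and Ucp1, Cidea, Cox8b and Dio2 had none, whichever cluster was read. From the same cells, the paper reports Ucp1 and Cidea among the genes of its beige cluster. At higher resolution it reports the highest Ucp1 in the cluster it numbers 12. How its numbers map to those used here is not given. All 4 preadipocyte markers with an entry, of 6, were lower, with F3 at -2.77, Mmp3 at -2.58, Itgb1 at -1.50 and Pdgfra at -1.15. The cycling markers Mki67 (-0.82) and Top2a (-1.02) were lower as well. Other cell types were covered by 6 lists (immune, endothelial, glial, pericyte and smooth muscle, mesothelial and epithelial, skeletal muscle) with 76 places, Des standing in both muscle lists. Of these, 3 had an entry for cluster 11, all lower, namely Pmp22 (-0.83), Ndufa4l2 (-0.50) and Eng (-0.28). In any cluster, the lists in that order had entries for 1, 2, 2, 2, 1 and 0 genes. A missing entry for cluster 11 is therefore no check of identity. Ndufa4l2 was found in 82.2% of the cluster, and both Ndufa4l2 and Pmp22 in 72.3% of other cells. The authors had taken immune, glial and endothelial cells out after a first clustering and then clustered the rest again.

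Of the 2487 genes, 999 (40.2%) were higher in cluster 11 and 1488 (59.8%) were lower, with a median log2 fold change of -0.30. A log2 fold change of at least 1 was reached by 172 genes, or 6.92% of the entries, and one of -1 or less by 211 genes, or 8.48%. These shares over all entries are the background for the counts of each list below. At a size of 2 the counts were 27 higher and 51 lower, and at a size of 3 they were 5 and 12. Genes at the low extreme were thus the more numerous. Of the 172 genes, 158 had a larger fold change in cluster 11 than in any other cluster that listed them, 12 were larger in cluster 4, and 1 each in clusters 7 and 8. Each fold change is against the cells outside its own cluster, so these are not direct differences.

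Detection moved with the direction of change, but not evenly. All 999 higher genes were found in a larger percentage of cells inside the cluster than outside, with medians of 87.9% and 41.6%. Of the 1488 lower genes, 1007 were found in a smaller percentage and 480, or 32.3%, in a larger one. Sparc, which encodes a collagen-binding matrix protein, shows the second kind, with a log2 fold change of -3.17 while 96.9% of the cluster and 96.7% of other cells had a count. Reads per cell are unknown for each cluster, and their part in these percentages was not tested.

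**Figure D1:**
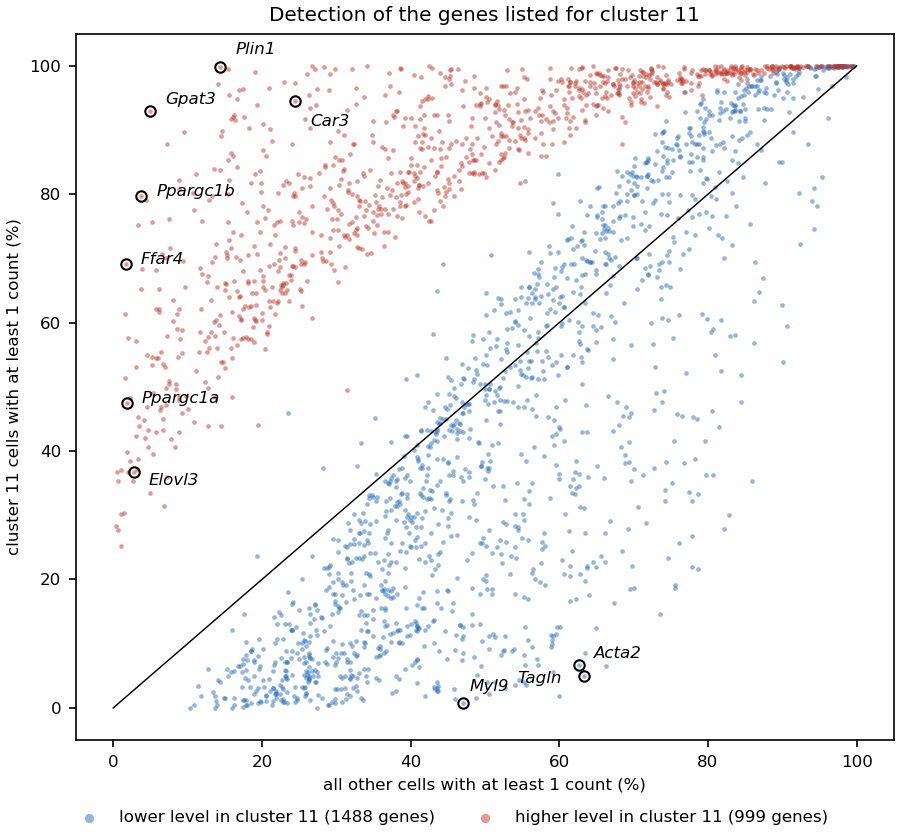
Percentage of cells with at least 1 count in cluster 11 (vertical axis) against all other cells (horizontal axis) for the 2487 listed genes, red where the level was higher in cluster 11 (999 genes) and blue where it was lower (1488 genes), with the line of equal detection. All red points lie above the line, and 480 blue points do too, while Gpat3, Ppargc1b, Ffar4 and Ppargc1a lie close to the left edge because under 6% of other cells had a count.

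The gene with the largest fold change was Car3, which encodes carbonic anhydrase 3, an abundant cytosolic enzyme of adipocytes. Its log2 fold change was 4.18, an 18.1-fold higher mean plus 1, with detection in 94.6% of the cluster and 24.5% of other cells. The fatty acid binding proteins Fabp5 (3.62, 100% against 83.1%) and Fabp4 (3.56, 100% against 73.3%) followed, which carry fatty acids through the cytosol. Acsl1, which joins long-chain fatty acids to coenzyme A, stood at 3.46 and was detected in 99.5% of the cluster against 27.1% elsewhere. Rbp4, the secreted carrier of retinol, stood at 3.15. These were the 5 genes at 3 or more, and 4 of them were found in at least 99.5% of the cells of the cluster.

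Below them came Agpat2 (2.95), which makes phosphatidic acid on the way to triglyceride, and G0s2 (2.94), an inhibitor of the lipase ATGL. Ppa1 (2.76), a pyrophosphatase, Cd36 (2.74), the fatty acid translocase of the plasma membrane, Cdo1 (2.65), which oxidizes cysteine, and Plin1 (2.58) were next. Mpc2 (2.55) forms the mitochondrial pyruvate carrier with Mpc1, and Scd1 (2.44) puts the double bond into oleate. Prkar2b (2.40), a regulatory subunit of protein kinase A, and Pnpla2 (2.39), which encodes ATGL itself, completed the first 15. All of these genes from Agpat2 to Pnpla2 were detected in at least 99.5% of the cluster, while their detection in other cells ranged from 14.4% for Plin1 to 81.7% for Mpc2.

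**Figure D2:**
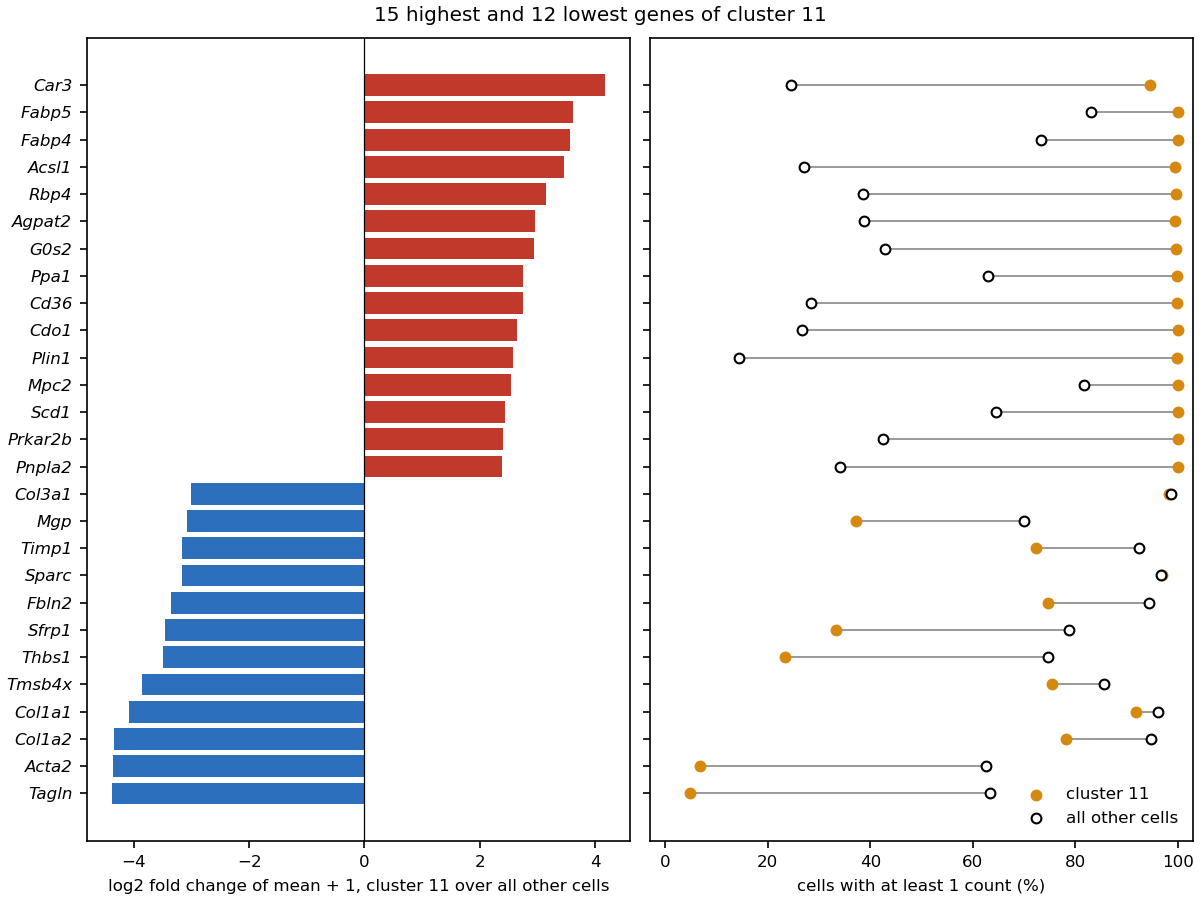
The 15 genes with the largest and the 12 with the smallest log2 fold change in cluster 11 (left, bars) and the percentage of cells with at least 1 count in cluster 11 (filled points) and in all other cells (open points) for the same genes (right). The higher genes reach nearly all cells of the cluster, while the lower genes range from near absence (Tagln, 4.9%) to equal detection with a lower level (Col3a1, 98.2% against 98.6%).

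A different set of genes led by detection. The largest difference belonged to Gpat3, an acyltransferase that starts glycerolipid synthesis, found in 93.0% of the cluster and in 5.0% of other cells, with a log2 fold change of 1.65. Plin1 was next, and then Lipe, the hormone-sensitive lipase, at 99.5% against 15.5%. The other genes among the first 10 were Arxes1 (97.1% against 14.1%), Slc36a2 (87.9% against 7.2%), Car5b (89.7% against 9.5%), Pde3b (99.1% against 19.1%), Aifm2 (95.5% against 15.6%), Mgll (96.2% against 16.9%) and Pcx (96.4% against 17.4%). Pde3b breaks down cyclic AMP under insulin, Mgll completes lipolysis at the last fatty acid, and Pcx, pyruvate carboxylase, refills the citrate cycle. Among these 10, only Plin1 was also among the 15 largest fold changes. Arxes1 and its neighbour Arxes2 (2.33, 99.5% against 29.8%) are near-identical copies on chromosome X, so reads may have been split between them.

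Some genes with small fold changes differed widely in detection, and the following 6 were chosen as examples after their values were seen. Ffar4, a receptor for long-chain fatty acids, was found in 69.2% of the cluster and 1.7% of other cells. Klb, the co-receptor of FGF21, was found in 35.4% against 0.6%, Acvr1c in 37.1% against 1.0% and Mc5r in 30.2% against 1.1%. Prlr, the prolactin receptor, was found in 65.3% against 3.8%, and Lgals12, a galectin of lipid droplets, in 61.3% against 1.6%. Their log2 fold changes ran from 0.28 for Klb to 0.87 for Prlr. All 6 were found in under 10.1% of other cells and could be listed only through cells inside the cluster. Their direction is therefore no separate result. None of these 6 genes had an entry in another cluster, which means only that a minimum of the comparison was missed there.

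Genes of lipid entry and storage were higher without exception where they were listed. Of 17 genes of lipid uptake and binding, 8 had an entry and all were higher, 6 of them by at least 1, with a median log2 fold change of 2.38. Besides Fabp5, Fabp4, Acsl1 and Cd36 these were Dbi (2.01), Lpl (1.83), Slc27a1 (0.54) and Got2 (0.54). Lpl, the lipase that frees fatty acids from circulating particles, was already detected in 92.0% of other cells and in 100% of the cluster. Of 21 genes of the lipid droplet and of lipolysis, 13 had an entry and all were higher, 11 by at least 1, with a median of 1.67. The list held both arms of turnover: the lipase Pnpla2 with its activator Abhd5 (1.81) and its inhibitor G0s2, and the coat proteins Plin1, Plin2 (1.67), Plin4 (0.99) and Plin5 (0.41). Cidec (1.05), which fuses droplets in white adipocytes, was found in 68.2% of the cluster and 5.7% of other cells. These shares stand against 6.92% of all entries.

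The enzymes that build triglyceride followed the same direction. Of 30 genes of fatty acid and triglyceride synthesis, 20 had an entry, 19 higher and 1 lower, with a median of 0.95. Of these, 9 were at 1 or more, against 6.92% of all entries. The glycerol branch included Agpat2, Gpd1 (1.78), Gpat3, Lpin1 (1.40), Dgat2 (1.32) and Dgat1 (0.93). The fatty acid branch included Scd1, Fasn (1.48), which makes palmitate, Acaca (1.15), Acly (0.42) and Thrsp (0.98). The lower member was Elovl1 (-0.37), which elongates very long chains. Of 7 carbonic anhydrase genes, 4 were listed and all were higher, with Car5b at 1.32, Car2 at 0.91 and Car13 at 0.56 beside Car3. Caveola genes were also mostly higher, with Cavin2 at 2.29, Cav1 at 2.13, Cavin1 at 1.16, Cav2 at 1.02 and Ehd2 at 0.90, while Cavin3 was lower (-0.46). Caveolae are pits of the plasma membrane that are dense in adipocytes.

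Some of these genes lie close together on chromosome 3 (mm10, GENCODE annotation). Fabp5 (chr3:10012548-10016607, plus strand) and Fabp4 (chr3:10204088-10208576, minus strand) bound a span of 196029 bases with 6 protein-coding genes. The other 4 of that span, among them Fabp9 and Pmp2, had no entry for cluster 11. Car13 (chr3:14641727-14663002), Car3 (chr3:14863512-14872523) and Car2 (chr3:14886273-14900770), all on the plus strand, lie within 259044 bases, and Car1 between them was the 1 of 4 protein-coding genes there with no entry. Plin1 lies at chr7:79720218-79732903 on the minus strand and Gpat3 at chr5:100845713-100899102 on the plus strand.

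Regulators of fat cell fate were split. Of 26 adipogenic transcription factors, 11 had an entry, 6 higher and 5 lower, with a median of 0.31. Cebpa and Pparg, the pair that locks in the adipocyte fate, stood at 1.92 and 0.98, and Pparg was found in 89.9% of the cluster against 14.7% of other cells. Srebf1 (0.91), the activator of lipid synthesis genes, Ebf2 (0.49), Nr1h3 (0.34) and Ebf1 (0.31) were higher as well. Nr1h3 was found in 8.7% of other cells and could be listed only through cells inside the cluster. The lower genes were Cebpd (-1.19), which acts early in adipogenesis, Id3 (-0.96), Klf4 (-0.65), Id2 (-0.56) and Nr2f2 (-0.40).

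Secreted factors and insulin signalling followed the adipocyte pattern with exceptions. Of 21 adipokines and secreted factors, 10 had an entry, 8 higher and 2 lower, with a median of 1.13. Adipoq, the insulin-sensitizing adiponectin, stood at 2.37 (92.1% against 17.6%) and Retn, resistin, at 1.45 (77.5% against 10.9%), with Adipor2 at 1.80. Metrnl (-0.76) and Pltp (-0.30) were lower. Of 22 genes of the insulin response and glucose uptake, 12 had an entry, 11 higher and 1 lower, with a median of 0.47. Pde3b (1.87), Pik3r1 (1.36) and Irs2 (0.67) led, while Slc2a1 (-0.51), the basal glucose transporter, was lower. Slc2a4, the insulin-regulated glucose transporter, had no entry.

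**Figure D3:**
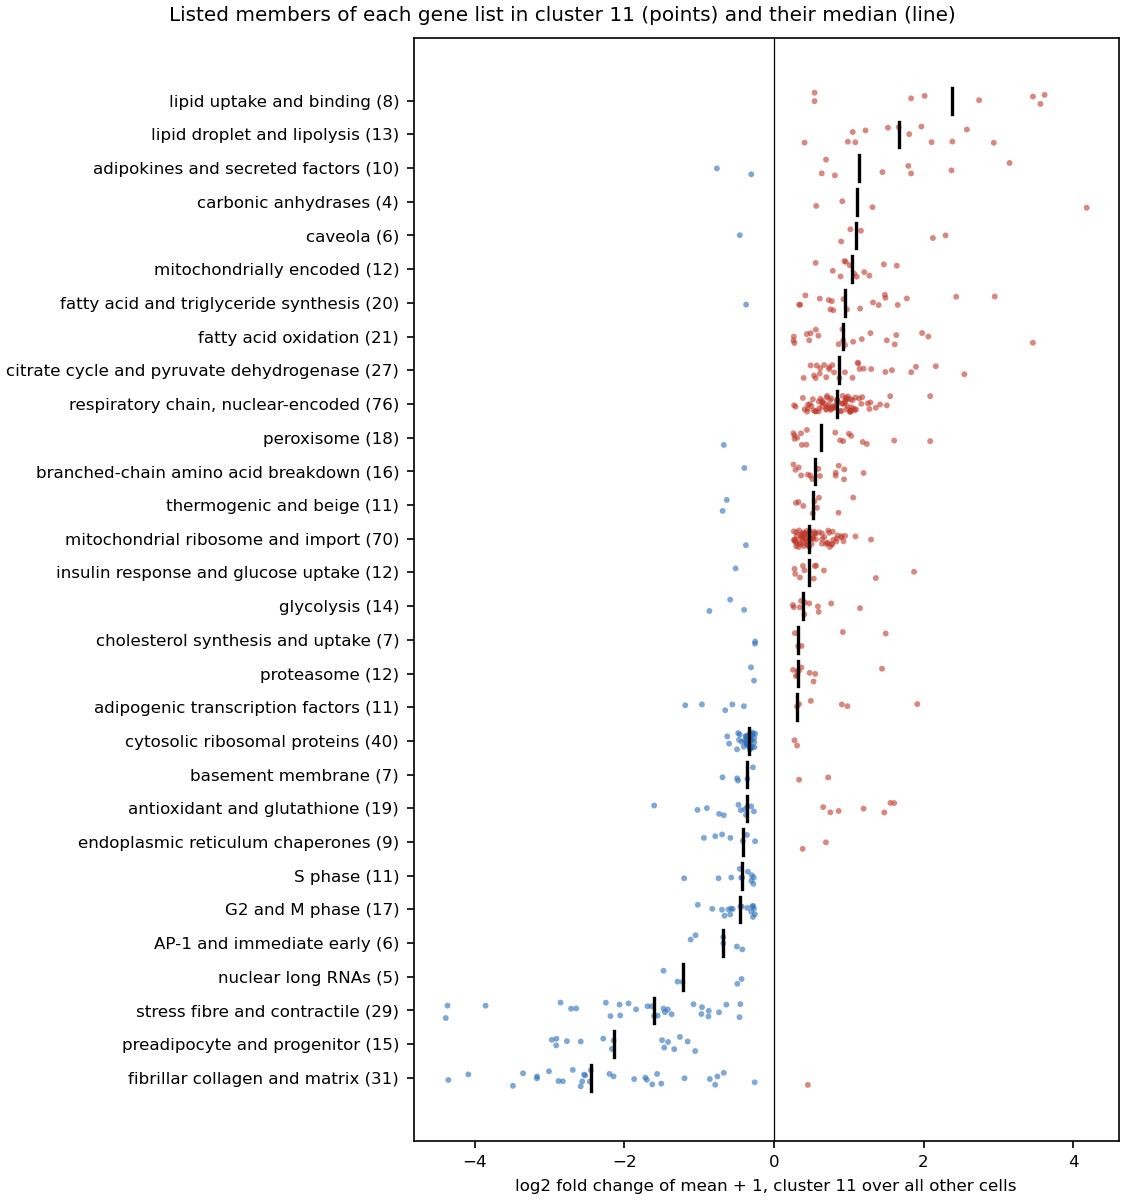
Log2 fold change of cluster 11 over all other cells for each listed member (points, red higher and blue lower) of the 30 gene lists with at least 3 listed members, with the median of each list (black line) and the number listed in brackets. Medians run from 2.38 for lipid uptake and binding to -2.45 for fibrillar collagen and matrix, and 19 of 30 lie above 0.

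The thermogenic genes were less complete. Of 34 thermogenic and beige genes, 11 had an entry, 9 higher and 2 lower, with a median of 0.52, and 1 reached 1. That gene was Ppargc1b (1.06), a coactivator of mitochondrial biogenesis, found in 79.7% of the cluster and 3.8% of other cells. Its relative Ppargc1a, the cold-induced coactivator, stood at 0.54. Adrb3 (0.60, 42.3% against 3.1%), the receptor through which noradrenaline acts on fat cells, and Kcnk3 (0.58, 48.2% against 2.3%), a potassium channel of brown and beige fat, were similar. Cox7a1 (0.86), Elovl3 (0.52), Pdk4 (0.39), Esrra (0.33) and Letmd1 (0.29) were higher too. Ckb (-0.69, 9.2% against 35.9%) and the creatine transporter gene Slc6a8 (-0.63, 18.7% against 48.3%), both of creatine cycling, were lower. Of the 11 genes, 7 had no entry in any other cluster, against 23.0% of all entries and 37.1% of the higher ones. All 7 were higher in cluster 11. Of these, Ppargc1b, Adrb3, Kcnk3, Ppargc1a, Elovl3 and Letmd1 were found in under 10.1% of other cells. They could be listed only through cells inside cluster 11, and their direction is no separate result. The same holds for Pdk4, found in 7.1% of other cells. Prdm16, Tmem26 and Zic1 were among the 23 genes with no entry for cluster 11.

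Fuel-burning pathways of the mitochondrion were higher almost throughout. All 21 listed genes of fatty acid oxidation, of 25, were higher, with a median of 0.93. Of the 21, 9 were at 1 or more, against 6.92% of all entries. They covered the steps from activation by Acsl1 through the dehydrogenases Acadl (2.06), Acadm (1.64) and Acadvl (1.17) to the electron carriers Etfb (1.98) and Etfa (0.95). Of 29 genes of the citrate cycle and pyruvate dehydrogenase, 27 had an entry and all were higher, with a median of 0.87. Of the 27, 12 were at 1 or more, against 6.92% of all entries. Among the larger values were those of Mpc2, Idh3a (2.16) and Mpc1 (1.84). Of the peroxisome list, 17 of 18 listed genes were higher (median 0.63), led by Scp2 (2.09), Cat (1.61) and Pex16 (1.24), with Prdx5 (-0.67) lower. Of the genes that break down branched-chain amino acids, 15 of 16 listed were higher (median 0.55). Here the mitochondrial aminotransferase Bcat2 (0.94) was higher and its cytosolic counterpart Bcat1 (-0.40) was lower.

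Glycolysis and antioxidant genes were mixed. Of 14 listed glycolytic genes, 11 were higher and 3 lower, with a median of 0.38, and Aldoa (1.15) was the gene past 1. Lower were Slc16a3 (-0.86), which exports lactate, Pkm (-0.59) and Hk1 (-0.40). Of 19 listed antioxidant and glutathione genes, 7 were higher and 12 lower, with a median of -0.36, while 13 were found in a larger percentage of cluster 11 (median difference 11.3 percentage points). Cat (1.61), Mgst1 (1.56), the mitochondrial Sod2 (1.48), Mgst3 (1.20), the mitochondrial Prdx3 (0.87), Sod1 (0.75) and the mitochondrial Txn2 (0.66) were the higher members. Gpx3 (-1.60), Gpx8 (-1.02), Prdx4 (-0.90) and Gstm2 (-0.73) led the lower ones, of which Gpx3 is secreted and Gpx8 and Prdx4 act in the endoplasmic reticulum. Cholesterol genes were sparse, with 7 of 21 listed, 5 higher (Hmgcs1 1.49, Insig1 0.92) and 2 lower (Srebf2 and Fdft1, both -0.25).

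Nuclear-encoded subunits of the respiratory chain were higher together. Of 80 such genes listed in any cluster, 76 had an entry for cluster 11 and all 76 were higher, with a median of 0.84. Of the 76, 22 were at 1 or more, against 6.92% of all entries. Genes were assigned to complexes by symbol, so Ndufa4 (1.09) was counted under complex I by its name alone. By this grouping the medians were 0.75 for 35 genes of complex I, 0.77 for 4 of complex II, 1.03 for 9 of complex III, 0.91 for 12 of complex IV and 0.80 for 15 of the ATP synthase (complex V). Cycs, the cytochrome c that passes electrons from complex III to complex IV, had the largest value, 2.09. The next were Ndufb10 (1.55) of complex I, Atp5g3 (1.51) of the ATP synthase and Uqcr11 (1.42) of complex III. These genes are widely expressed, with a median detection of 80.7% in other cells and 99.1% in the cluster.

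The 12 listed transcripts of the mitochondrial genome were also all higher, with a median of 1.04, from 0.56 for mt-Co3 to 1.64 for mt-Nd2. Since cells with a high share of mitochondrial reads had been removed, the cells kept had passed an upper limit on these transcripts. Of 77 genes of the mitochondrial ribosome and import listed anywhere, 70 had an entry, 69 higher and 1 lower (Mrpl52, -0.38), with a median of 0.47. The ribosomal part held 52 genes (median 0.42, led by Mrpl12 at 1.30 and Mrpl34 at 1.09) and the import part 18 (median 0.58, led by Tomm5 at 0.93 and Timm23 at 0.90). Of these 70 genes, 39 had no entry in another cluster, where 37.1% of all higher entries had none. The cytosolic ribosome differed: of 40 listed ribosomal protein genes, 38 were lower and 2 higher (Rplp2 0.31 and Rpl9 0.27), with a median of -0.34 and all values between -0.62 and 0.31, while all 40 were detected in a larger percentage of cluster 11 than of other cells.

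Promoters of the respiratory chain genes were searched because so many of them were higher together. RefSeq promoters (GRCm38.p6) of 300 bases, 250 before and 50 after the start, were matched by symbol for 1934 of the 2487 genes. NRF1, a factor known for respiratory chain genes, binds a core of GCATGCGC, which was searched on both strands. It was found in 10 of 62 respiratory chain genes with a promoter, or 16.1%, against 3.05% of all 27025 genes. Fatty acid oxidation had it in 3 of 18 genes (Acadm, Etfa and Etfdh), the mitochondrial ribosome and import list in 5 of 63, and the matrix and contractile lists in 0 of 23 and 0 of 25. It was also in 2 of 15 G2 and M phase genes (13.3%), which were lower in cluster 11, and in 2 of 14 glycolytic and 2 of 13 lipid droplet genes. A match describes the sequence and is not a bound site. The 250 bases before the start are shown for the 2 respiratory chain genes with the largest fold change that hold the core there, Cycs (chr6:50566570-50566819, minus strand) and Atp5k (chr5:108434400-108434649, minus strand), written 5′ to 3′ along the gene with the core in capitals. In Atp5k 2 overlapping cores on opposite strands make a run of 10 capitals.
Cycs: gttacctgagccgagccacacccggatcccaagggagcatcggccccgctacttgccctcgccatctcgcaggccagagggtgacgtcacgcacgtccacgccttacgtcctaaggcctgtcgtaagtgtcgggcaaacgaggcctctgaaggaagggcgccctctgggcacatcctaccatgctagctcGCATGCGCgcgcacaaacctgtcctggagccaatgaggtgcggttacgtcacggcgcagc
Atp5k: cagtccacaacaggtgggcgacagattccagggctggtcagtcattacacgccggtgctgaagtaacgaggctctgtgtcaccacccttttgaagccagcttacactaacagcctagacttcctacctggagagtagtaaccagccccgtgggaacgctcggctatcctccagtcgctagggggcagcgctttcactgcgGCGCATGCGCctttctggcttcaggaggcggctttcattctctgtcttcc

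The core began 60 bases before the start in Cycs (log2 fold change 2.09) and 50 bases before it in Atp5k (1.02). Of the 172 genes higher by at least 1, 134 had a promoter and 8 of these (5.97%) held the core, and of the 211 lower by at least 1, 153 had a promoter and 1 (Lrp1) held it.

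The lower side of cluster 11 was led by the cytoskeleton of contractile fibroblasts. Tagln, an actin-binding protein of stress fibres, had the smallest log2 fold change, -4.39, and was found in 4.9% of the cluster against 63.3% of other cells. Acta2, smooth muscle actin, followed with -4.36 (6.7% against 62.6%). All 29 genes of the stress fibre and contractile list had an entry and all 29 were lower, 21 of them by at least 1 (background 8.48%), with a median of -1.60. Tmsb4x, which binds actin monomers, stood at -3.86, the tropomyosin genes Tpm2 at -2.71 and Tpm1 at -2.64, and caldesmon, Cald1, at -2.85. Few cells of the cluster had a count for Myl9 (0.7% against 47.0%), Ccn2 (1.6% against 48.8%) and Cnn2 (4.3% against 54.6%). The cytoplasmic actins Actb (-2.06) and Actg1 (-1.60) were lower while still detected in 99.8% and 97.3% of the cluster.

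The CArG box, the site of serum response factor in contractile genes (CC, then 6 bases that are A or T, then GG), was found in 4 of 25 contractile genes with a promoter (Actg1, Cnn2, Myl6 and Myl9), or 16.0%, against 1.81% of all genes. It was found in 0 of 62 respiratory chain and 0 of 23 matrix genes, and in 1 of 15 genes of G2 and M phase, 1 of 14 of glycolysis, 1 of 14 of the peroxisome and 1 of 10 of the proteasome. The 250 bases before the start are shown for the 2 with the most negative fold change, Myl9 (chr2:156775214-156775463, plus strand) and Actg1 (chr11:120348496-120348745, minus strand), with the box in capitals.
Myl9: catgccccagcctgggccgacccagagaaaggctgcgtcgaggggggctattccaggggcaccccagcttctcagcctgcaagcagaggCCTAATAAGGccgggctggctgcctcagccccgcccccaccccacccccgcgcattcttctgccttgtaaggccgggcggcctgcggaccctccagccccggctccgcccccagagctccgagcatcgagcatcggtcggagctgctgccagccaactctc
Actg1: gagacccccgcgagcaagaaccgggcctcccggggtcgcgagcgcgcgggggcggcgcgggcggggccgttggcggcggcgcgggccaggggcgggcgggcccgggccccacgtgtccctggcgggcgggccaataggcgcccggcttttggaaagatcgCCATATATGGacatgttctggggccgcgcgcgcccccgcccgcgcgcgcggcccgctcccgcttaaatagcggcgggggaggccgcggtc

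Over both factors, 10 patterns were searched on both strands. The others were TCAAGGTCA and its shorter form AAGGTCA (ERR), the direct repeat of AGGTCA with 1 base between (as PPARγ binds), TTGCGCAA (C/EBP), TGANTCA (AP-1), AAGATGGC (YY1), CATTCC (TEAD) and CCAAT. The direct repeat and TTGCGCAA were in 0 of 62 respiratory chain and 0 of 13 lipid droplet promoters, and in 0.0481% and 0.207% of all genes. Patterns this rare would be missing from most lists of this size, so these counts of 0 carry no information. AAGGTCA, which the longer form holds, was in 7 of 62 respiratory chain genes (11.3%) against 5.38% of all. CATTCC was in 9 of 25 contractile genes (36.0%) against 16.6% of all, and AAGATGGC in 8 of 62 respiratory chain genes (12.9%) against 3.19%. AAGATGGC was as common in the mitochondrial ribosome and import list (9 of 63, 14.3%) and in cytosolic ribosomal protein genes (5 of 32, 15.6%), most of which were lower in cluster 11. TGANTCA was in 7 of 62 respiratory chain (11.3%) and 4 of 25 contractile genes (16.0%) against 8.97% of all. CCAAT was in 28 of 62 respiratory chain (45.2%), 16 of 24 citrate cycle (66.7%) and 12 of 15 G2 and M phase genes (80%) against 41.1% of all.

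Extracellular matrix was the other large lower group. Of 36 genes of fibrillar collagen and matrix, 31 had an entry, 30 lower and 1 higher, with a median of -2.45. Of these, 25 were at -1 or less, against 8.48% of all entries. Col1a2 (-4.35) and Col1a1 (-4.09), the chains of type I collagen, led, followed by the matricellular Thbs1 (-3.49), Fbln2 (-3.35), Sparc, the protease inhibitor Timp1 (-3.17) and Col3a1 (-3.01). Most of these transcripts remained detectable in the cluster, as with Col1a1 in 91.9% and Col3a1 in 98.2% of its cells, while Timp3 (-2.69) was found in 4.1% against 51.3%. The exception was Col6a3 (0.45, 91.2% against 68.9%). Genes of the basement membrane that wraps adipocytes differed less: of 7 listed genes, 2 were higher (Col15a1 0.72 and Lamb1 0.34) and 5 lower, none past -1, while 6 were found in a larger percentage of cluster 11 (median difference 11 percentage points). Sfrp1 (-3.46), a Wnt antagonist, and Mgp (-3.07), an inhibitor of calcification, completed the 12 lowest genes.

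Listed preadipocyte genes were lower throughout. All 15 listed progenitor genes, of 26, were at -1 or less, with a median of -2.14. After Mfap5 (-2.97) and Cxcl14 (-2.91) these included S100a6 (-2.91), Thy1 (-1.42) and both PDGF receptor genes, Pdgfra and Pdgfrb (-1.26). All 11 listed S phase genes were lower (median -0.43, with Hist1h1b at -1.20), as were all 17 listed genes of G2 and M phase (median -0.45). In each of these cycle lists 1 gene reached -1 (8.48% of all entries did), and their medians lay close to the -0.45 of all lower entries. Transcripts of the cycle were still found in part of the cluster, with Mki67 in 13.1% and Top2a in 26.1% of its cells against 23.1% and 30.3% of other cells. All 6 listed AP-1 and immediate early genes were lower (median -0.68), from Egr1 (-0.42) to Ier3 (-1.11), where 59.8% of all entries were lower. Of 9 listed genes in the list named endoplasmic reticulum chaperones, 7 were lower, with Pdia3 at -0.94 and P4hb at -0.78. Dnajb9 (0.70) and Xbp1 (0.38) were higher, of which Xbp1 encodes a transcription factor and no chaperone. Of the 9, 8 were found in a larger percentage of cluster 11 (median difference 5.4 percentage points). The proteasome was higher in 10 of 12 listed genes (median 0.32), led by Psma1 (1.44), with Psmc3 (-0.31) and Psmd8 (-0.27) lower.

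In the list named nuclear long RNAs, all 5 listed were lower, with Meg3 at -1.48, AY036118 at -1.29, Malat1 at -1.22, Gm26917 at -0.49 and Neat1 at -0.43. Yet 4 of the 5 were found in a larger percentage of cluster 11 than of other cells (median difference 12.8 percentage points). The place of these transcripts in the cell was not measured, and the origin of the AY036118 and Gm26917 reads was not tested. Of the HMGN genes, Hmgn5 was higher (0.30, 65.1% against 23.4%) and Hmgn3 lower (-0.41, 36.3% against 45.2%). Hmgn1 and Hmgn2, the deleted genes, had no entry for cluster 11, so the table gives no check of the genotype here. Serpina3n and Col5a3 served as annotation genes for differentiating cells. Serpina3n was lower (-0.41) although found in 82.0% of the cluster against 55.4% of other cells. Col5a3 and Ear2 had no entry for cluster 11.

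Clusters 4 and 8 also listed many adipocyte genes as higher, so the same genes were set side by side. Cluster 6, which was not set beside them, listed Car3 (0.91), Fabp4 (0.43) and Fabp5 (0.41) as higher too. Fabp5 had no entry for cluster 8. Each cluster was compared with all remaining cells, and so these comparisons share cells. Of the 172 genes higher by at least 1 in cluster 11, 160 were also higher in cluster 4 and 12 had no entry there, and 59 were also higher in cluster 8. Car3 stood at 1.75 in cluster 4 and 1.14 in cluster 8. Fabp4 stood at 3.08 and 1.25, and Cd36 at 2.24 and 1.64. Pnpla2 (2.52) and Scd1 (3.24) had a larger fold change in cluster 4 than in cluster 11, but against different remaining cells. The cells compared with cluster 11 include cluster 4. In the direct difference described below, all 12 lipid droplet genes listed in both, with Pnpla2, lay above cluster 4. Among synthesis genes listed in both, which include Scd1, the smallest difference was -0.04. Tagln was low in clusters 4 (-3.90) and 8 (-4.40) as well, whereas Col1a1 was lower in cluster 11 (-4.09) than in cluster 4 (-1.89) or cluster 8 (-2.03).

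**Figure D4:**
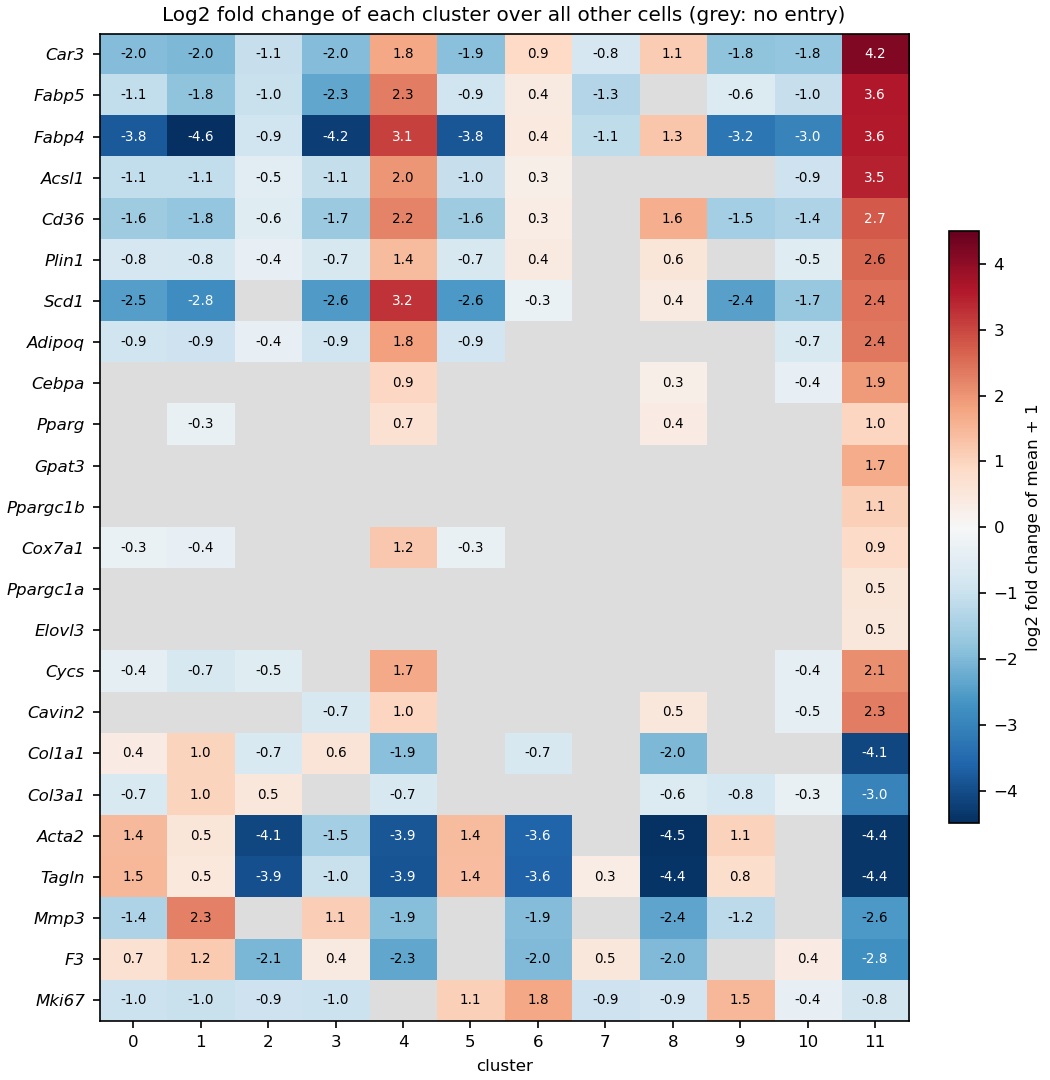
Log2 fold change of each cluster over all other cells for 24 genes (rows) in the 12 clusters (columns), grey where a gene has no entry. Car3, Fabp4 and Cd36 reach 1 or more in clusters 4, 8 and 11, Gpat3, Ppargc1b, Ppargc1a and Elovl3 have a value in cluster 11 alone, and Acta2 and Tagln lie below -3 in clusters 2, 4, 6, 8 and 11.

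With the shares of cells, each fold change was rewritten as the level over all cells, which gives the difference between 2 clusters directly, again as log2 of the mean plus 1. For cluster 4 this was possible for 1505 genes, 60.5% of those listed for cluster 11 and 72.6% of those listed for cluster 4. Cluster 11 was above cluster 4 by at least 1 for 33 genes (2.19%) and below it by at least 1 for 39 (2.59%). The 5 largest differences were Car3 (2.40), G0s2 (2.0), Hp (1.81), Rbp4 (1.81) and Acsl1 (1.64). The 5 smallest were AY036118 (-3.94), Col3a1 (-2.31), Col1a1 (-2.28), Lars2 (-2.15) and Lox (-2.12). AY036118 and Lars2 were high in cluster 4 itself, with log2 fold changes of 3.86 and 2.24.

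Of all 1505 genes, 45.2% lay above cluster 4. By list, cluster 11 was above cluster 4 for all 7 genes of lipid uptake listed in both (median 1.04), all 12 of the lipid droplet (0.66) and all 24 of the citrate cycle (0.35), and for 61 of 68 respiratory chain genes (0.30). These lists were higher in both clusters over other cells, and more so in cluster 11. Collagen and matrix lay below cluster 4 for 28 of 30 genes (median -0.93), and contractile genes differed less (median -0.15 over 29). The 4 thermogenic genes listed in both (Cox7a1, Pdk4, Slc6a8 and Ckb) were all lower in cluster 11 than in cluster 4 (median -0.23). Slc6a8 and Ckb were also lower in cluster 11 than in all other cells. The other 7 thermogenic genes of cluster 11, all higher there, had no entry for cluster 4. These 4 genes therefore do not stand for the whole list. Detection set the clusters apart in another way. The median entry of cluster 4 was found in 10.8% of its cells against 63.0% of other cells, and 1.98% of its entries had the larger detection inside the cluster, against 59.5% for cluster 11. Of the 1505 genes, 1488 were found in more cells of cluster 11 than of cluster 4. The part of counts per cell in the differences between these clusters was not tested.

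Cluster 8 differed from cluster 11 in its respiratory chain genes. The comparison covered 860 genes, 34.6% of those of cluster 11 and 76.4% of those of cluster 8, with 43 (5%) above and 63 (7.33%) below by at least 1. The 5 largest differences were Car3 (2.81), Fabp4 (2.21), Plin1 (1.96), Scd1 (1.96) and Cdo1 (1.81), and the 5 smallest were Col3a1 (-2.42), Lox (-2.34), Fbln2 (-2.20), Rnase4 (-2.16) and Sned1 (-2.16). Of the 16 respiratory chain genes listed for cluster 8, 15 were lower there, and all 16 were higher in cluster 11, with a median difference of 1.18. Only 16 of the 80 genes passed the minimum for an entry in cluster 8, 15 of them by being low there, so these 16 do not stand for the whole chain. Over the 13 respiratory chain genes listed for clusters 4, 8 and 11, the median difference was 0.36 against cluster 4 and 1.20 against cluster 8. Cox5a, for example, stood at 1.29 in cluster 11 and -0.48 in cluster 8. Transcripts of the mitochondrial genome were higher in both, and the difference was smaller (median 0.26 over 12). Ribosomal protein genes went the other way, with 44 of 45 higher in cluster 8 and 20 of 21 lower in cluster 11 than in cluster 8 (median -0.61). Basement membrane genes were higher in cluster 8 for 7 of 8 listed, and all 6 listed in both lay below cluster 8 in cluster 11 (median -0.82), as did 67.4% of all 860 genes. The median entry of cluster 8 was found in 55.9% of its cells against 58.0% elsewhere.

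**Figure D5:**
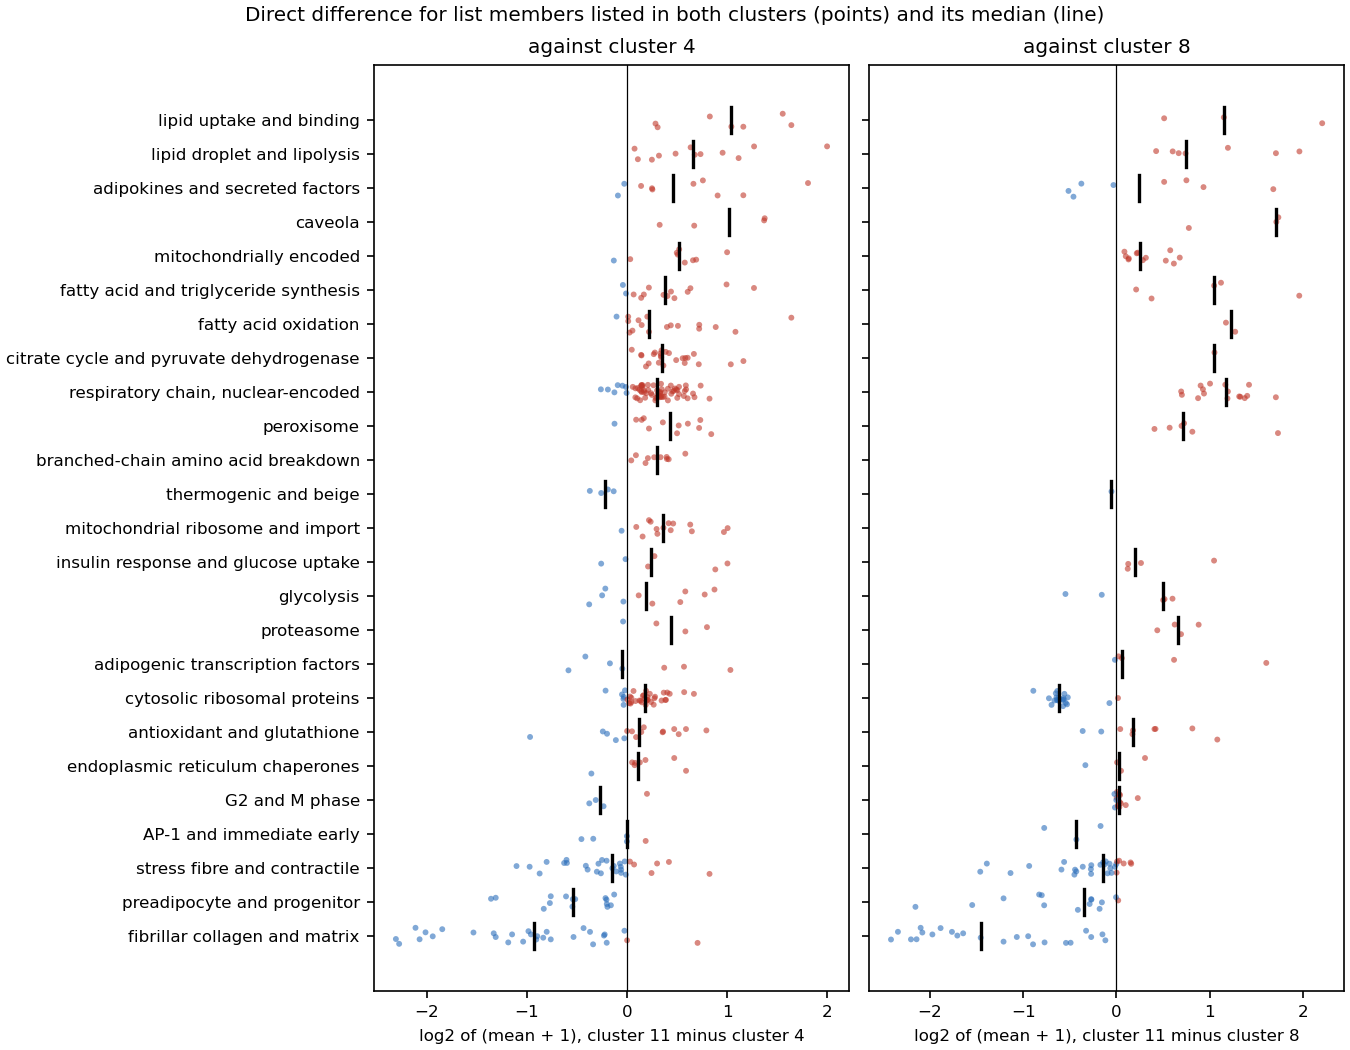
Difference of log2 (mean plus 1) between cluster 11 and cluster 4 (left) and cluster 8 (right) for list members listed in both clusters (points, red above 0 and blue below) with the median (black line). Lipid droplet genes lie above 0 in both panels and matrix genes mostly below, while the respiratory chain median is 0.30 over 68 genes against cluster 4 and 1.18 over 16 genes against cluster 8, so the medians are over different sets.

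Of the 172 genes higher by at least 1, 8 were listed as higher in no other cluster. Among them were Gpat3 (1.65), Gm45716 (1.43), Hipk2 (1.32), Cib2 (1.14), Ywhab (1.07), Ppargc1b (1.06) and Emc6 (1.01). Cib2 was found in 75.7% of the cluster and 5.2% of other cells. Gpat3, Ppargc1b and Cib2 were each found in under 10.1% of other cells and could be listed only through cells inside the cluster. Ywhab and Emc6 were found in most other cells too (84.4% and 62.1%) and were listed as lower in 1 other cluster each. Counting every size of change, 571 of the 2487 genes had no entry in another cluster, 371 of them higher.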

How the data were processed

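Single-cell RNA was captured from 8 samples, 2 cultures per genotype (WT, DKO) and day (0, 6). Per the study's methods and the submitters' processing notes, the authors mapped 3′ reads to mm10 with Cell Ranger 6.0.0, aggregated the captures at equal read depth, filtered cells on gene number and mitochondrial share, normalized with Seurat, left out endothelial, glial and immune cells after a first clustering, clustered again, and compared each of 12 clusters with all remaining cells by MAST. No removal of doublets is described. The authors deposited a log2 fold change, 2 detection fractions (printed as percents) and a p-value per entry. Listed log2 fold changes are at least 0.25 in size. The deposited p-values treat cells as replicates and were used in 1 alternative only. Columns of per-sample values left unused numbered 0. Of 7 symbols damaged to dates in cluster 11, 5 were restored from row names and 2 stayed unnamed.

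The members and gene lists were chosen with earlier results of these data known. Genes were called at a log2 fold change of 1. Named genes were the 15 largest and 12 smallest fold changes, the 10 largest detection differences, the markers, the study's annotation genes, HMGN genes, up to 4 leading members of each list with those against its direction, and 5 at each end of the comparisons with clusters 4 and 8. Other genes are named as examples, chosen after their values were seen. Cluster shares were solved by least squares from the 10 genes listed in every cluster, since each cluster's entry must give that gene the same detection overall. With share s and fold r, the level over all cells is r / (s r + 1 - s). Both steps were tested on simulated data in which every gene was listed in every cluster, unlike here. The difference between clusters was tested there with shares from all genes, not from 10. Positions came from GENCODE vM21 (mm10) for 2465 genes. Python 3.11.15, numpy 2.4.6, pandas 2.3.3 and matplotlib 3.10.9 were used.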

Additional observations from a re-analysis of the deposited data

How the results depend on the processing

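The counts of genes depended on the fold minimum by construction. At 0.5 in place of 1, 505 genes were higher and 626 lower, and at 2 the counts were 27 and 51. Genes higher in no other cluster numbered 97 at 0.5, 0 at 2, and 28 when other clusters counted only from 0.5. A detection minimum of 25% or the deposited adjusted p below 0.05 kept the counts within 1.5 times. Ordering by the difference of detection kept 1 of the 15 leading genes and ordering by its ratio, added after seeing the data, kept 0. By detection, 1488 of 1505 genes lay above cluster 4 and 481 of 860 above cluster 8, in place of 680 and 280. Medians by the difference of detection turned positive for antioxidant (11.3 percentage points), basement membrane (11), endoplasmic reticulum chaperones (5.4), cytosolic ribosomal proteins (2.25) and nuclear long RNAs (12.8). The cause was not tested. The other 25 list medians kept their sign. Solving shares from all 2692 genes in at least 2 clusters gave 1.52% for cluster 11 and changed no count.

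No paired analysis was possible because no sample has a value of its own. For the same reason no replicate was left out. Cell numbers and reads reached per cell are unknown, so no counting error is given.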
